A study of Mus musculus with 2 samples.

Results

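Calmodulin is the small calcium sensor of every eukaryotic cell, and the calcium/calmodulin-dependent protein kinases (CaM kinases) are the enzymes that it switches on when calcium rises. The 9 genes described here were listed by name and were found by matching the gene IDs of the files to the mouse GENCODE annotation: Calm2 and Calm3, Camk2a, Camk2b, Camk2d and Camk2g, Camk4, Camkk1 and Camkk2. They are 9 of 43346 genes in the files. RNA was measured in 2 areas of the cerebellar granule layer, cut by laser capture from adult male wild-type tissue of the mouse strain B6NCrl (also given as C57Bl6) at 8 months of age. Each area covered 18000 square microns with a stated input of 50 cells, and each gave 1 library made by a Smart-seq protocol, in which full-length polyadenylated RNA is copied and amplified. The areas carry 1 donor label and the biological replicate numbers 1 and 2, and form 1 group, so no condition is compared. The labels do not say whether the areas came from separate animals, so the spread between them, and any p-value, may be technical.

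Several calmodulin genes in mammals encode the same protein, which binds calcium through its EF-hand loops. CaM kinase II (CaMKII) is a ring of subunits from the alpha, beta, delta and gamma genes Camk2a, Camk2b, Camk2d and Camk2g, and is known for its part in synaptic plasticity. The alpha gene dominates the forebrain, and the beta subunit binds actin filaments. CaM kinase IV, from Camk4, is a largely nuclear kinase that phosphorylates the transcription factor CREB and is long known in cerebellar granule cells. The CaM kinase kinases, from Camkk1 and Camkk2, phosphorylate and so activate CaM kinases I and IV.

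Libraries held 19962271 gene counts in replicate 1 and 19261911 in replicate 2. The 6 granule neuron markers were all detected in both areas and summed to 1917 TPM in replicate 1 and 2143 TPM in replicate 2. Marker transcripts of other cell types were present in both areas. The markers summed to 511 and 468 TPM for Bergmann glia and astrocytes, to 547 and 666 TPM for oligodendrocytes, to 106 and 174 TPM for Purkinje cells and to 44.3 and 33.5 TPM for inhibitory neurons. They summed to 82.4 and 62.4 TPM for microglia and to 184 and 166 TPM for vessels. Red blood cell genes set replicate 1 apart, at a summed 5036 TPM against 389 TPM in replicate 2. A level here belongs to a whole area, and a smaller share of cells of a type cannot be told apart from less RNA per cell.

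The calmodulin genes are shown first in sequence, because Calm2 and Calm3 write the same protein in different bases, by which their reads can be told apart. Their coding sequences (447 bases without the stop codon, GENCODE M21 transcripts Calm2-201 and Calm3-201 on GRCm38) differed at 78 bases and were identical at 82.6% of positions. Of the 78 differences, 74 fell on the third base of a codon, and none of the 149 residues differed. Bases 49 to 108 of the coding sequence, which hold the first of the 4 EF-hand loops, read as follows, with capitals at the 11 bases that differ between the genes.
Calm2: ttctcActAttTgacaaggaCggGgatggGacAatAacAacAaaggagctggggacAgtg
Calm3: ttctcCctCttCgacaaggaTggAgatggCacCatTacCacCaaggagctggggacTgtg

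The longest run shared by both coding sequences was 17 bases. The deposited posterior standard deviation of the count, a measure of uncertain read assignment, was 2.89 counts in replicate 1 and 3.37 counts in replicate 2 for Calm2. It was 0 in both libraries for the other 8 genes. A search of the annotated transcripts found 2 pseudogenes at least 90% identical to the Calm2 coding sequence over at least 300 bases, with 55.4 counts in replicate 1 and 89.3 in replicate 2, or 0.0492% and 0.0755% of the Calm2 counts. None was found for Calm3 under the same limits.

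CaMKII subunits are spliced differently in the linker between the kinase domain and the association domain, and the exons that vary there are shown because the isoform results below turn on them. All sequences come from the GENCODE M21 transcripts on GRCm38, with the exon in capitals and 12 bases of the neighbouring coding exons in lower case on each side. The Camk2b exons lie on the minus strand at chr11:5987057-5987131 (75 bases), chr11:5982501-5982572 (72 bases) and chr11:5981070-5981114 (45 bases), the Camk2d exon on the plus strand at chr3:126805857-126805916 (60 bases) and the Camk2g exon on the minus strand at chr14:20745792-20745860 (69 bases).
Camk2b, 75 bases: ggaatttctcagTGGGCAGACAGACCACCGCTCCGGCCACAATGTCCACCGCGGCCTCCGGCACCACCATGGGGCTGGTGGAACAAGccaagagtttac
Camk2b, 72 bases: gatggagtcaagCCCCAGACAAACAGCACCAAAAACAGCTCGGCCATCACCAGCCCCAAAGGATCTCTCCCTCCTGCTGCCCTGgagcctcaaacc
Camk2b, 45 bases: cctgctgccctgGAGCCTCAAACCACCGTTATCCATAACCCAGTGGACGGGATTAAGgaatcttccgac
Camk2d, 60 bases: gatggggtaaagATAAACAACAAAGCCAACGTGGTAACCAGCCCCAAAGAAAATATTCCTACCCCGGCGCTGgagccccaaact
Camk2g, 69 bases: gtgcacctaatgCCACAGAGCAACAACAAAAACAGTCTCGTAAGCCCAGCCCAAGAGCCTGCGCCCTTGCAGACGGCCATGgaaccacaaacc

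A further exon of 33 bases exists in a matching form in Camk2g and Camk2d. In CaMKII genes an insert of this kind is known to carry a nuclear localization signal. It lies at chr14:20747819-20747851 on the minus strand in Camk2g and at chr3:126802937-126802969 on the plus strand in Camk2d. The exons differ at 7 of the 33 bases, shown in capitals.
Camk2g, 33 bases: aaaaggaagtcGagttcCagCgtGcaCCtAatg
Camk2d, 33 bases: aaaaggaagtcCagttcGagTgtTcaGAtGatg

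Levels of the genes spanned several orders of magnitude, and 8 of the 9 were detected in both areas at a TPM (transcripts per 1000000 transcripts, a level per transcript length) of at least 1 and at least 5 expected counts. The same thresholds were met by 50.4% of protein-coding genes. From high to low by gene-level TPM the order was Calm2, Camk2d, Calm3, Camk4, Camk2b, Camk2g, Camkk2, Camkk1 and Camk2a. It was the same in both areas. For every pair of neighbours in this order the lower of the 2 area values of the higher gene lay above both values of the next. The steps were uneven. Camk2d was 1.12-fold above Calm3 in replicate 1 and 1.13-fold in replicate 2, whereas Calm2 was 27.8-fold and 27.1-fold above Camk2d. Summed over protein-coding transcripts alone, Camk4 stood above Camk2d in both areas, and Calm3 fell below Camk4 and Camk2b to 79.8 and 85.4 TPM. The place of Camk4 also depends on the transcript length used, as given below.

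**Figure D1:**
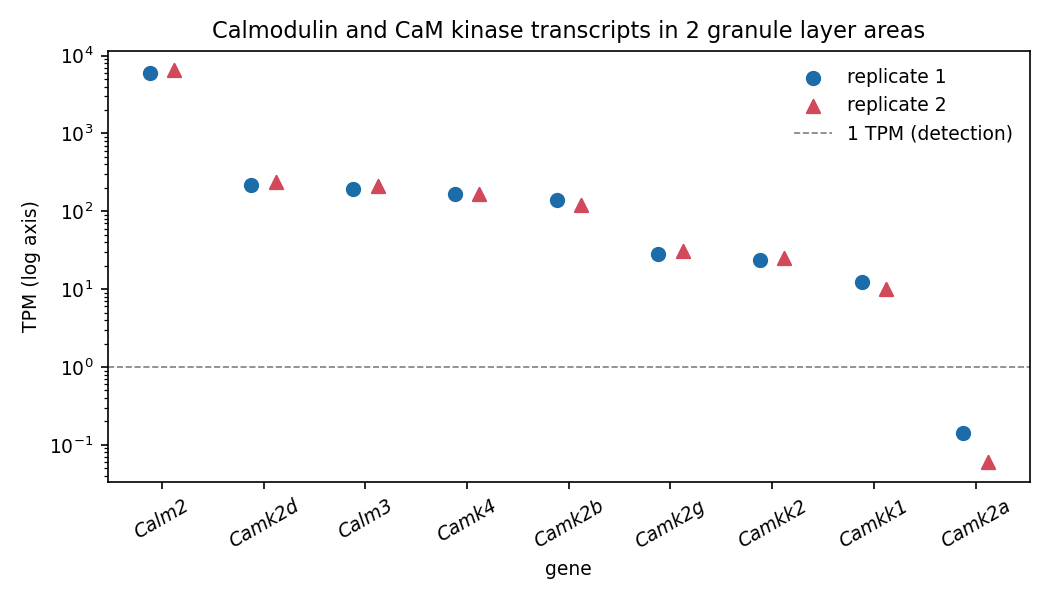
TPM on a log axis for each of the 9 genes in each area, replicate 1 as circles and replicate 2 as triangles, ordered by mean level; the dashed line marks the detection level of 1 TPM. Calm2 stands near 6225 TPM, 4 genes lie between 121 and 239 TPM, 3 between 10.03 and 31.0 TPM, and Camk2a lies below 1 TPM.

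Calm2 (ENSMUSG00000036438.8, chr17:87433412-87446935, minus strand) had 5987 TPM in replicate 1 and 6464 TPM in replicate 2, from 112618 and 118243 counts. It was above 99.9% of the protein-coding genes detected in both areas, in each area. Nearly all of it was the coding transcript Calm2-201, with 97.7% and 98.0% of the gene. The remainder was 2 transcripts annotated as retained introns.

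Calm3 (ENSMUSG00000019370.10, chr7:16915379-16924114, minus strand) had 193 TPM in replicate 1 and 212 TPM in replicate 2, from 3863 and 4033 counts. Calm2 was thus 31.0-fold and 30.5-fold above Calm3. The gene level of Calm3 mixed transcripts of different annotated types. The coding transcript Calm3-201, of 2290 bases, held 41.3% of the TPM in replicate 1 and 40.2% in replicate 2. A short form of 482 bases (ENSMUST00000173557.1), annotated as a processed transcript with no coding sequence, held 36.1% and 41.4%. A form of 648 bases (ENSMUST00000172594.1), annotated as a target of nonsense-mediated decay, held 22.6% and 18.3%. In replicate 2 the 482-base form had the highest TPM, at 87.95 against 85.37 for the coding transcript, and the intervals on these values overlapped. By counts the picture was different, since TPM divides by length: Calm3-201 held 77.5% and 77.3% of the counts and the 482-base form held 11.8% and 13.9%. Summed over protein-coding transcripts alone, Calm3 had 79.8 and 85.4 TPM, and Calm2 was 73.3-fold and 74.2-fold above it.

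Among the CaMKII genes Camk2d led at the gene level. Camk2d (ENSMUSG00000053819.12, chr3:126596302-126846326, plus strand) had 215 TPM in replicate 1 and 239 TPM in replicate 2, from 9796 and 10804 counts. Camk2b (ENSMUSG00000057897.10, chr11:5969644-6066362, minus strand) had 139 TPM in replicate 1 and 121 TPM in replicate 2, from 7414 and 6278 counts. Camk2d was the higher of the pair in both areas, and their values did not overlap. Camk2g (ENSMUSG00000021820.12, chr14:20734875-20794088, minus strand) followed at 28.0 and 31.0 TPM, from 1719 and 1850 counts.

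Camk2a (ENSMUSG00000024617.12, chr18:60925618-60988152, plus strand), the alpha gene, had 0.14 TPM in replicate 1 and 0.06 TPM in replicate 2, from 9 and 5 counts. Its deposited posterior mean TPM was higher, at 0.62 and 0.50. The counts are 0.451 and 0.260 counts per 1000000 gene counts, with exact Clopper-Pearson 95% intervals of 0.206 to 0.856 and 0.0843 to 0.606 that cover counting error only, since amplified reads are not independent molecules. Camk2a was therefore above a count of 0 but below the detection level in both areas. With so few reads its transcripts cannot be ranked: the estimate put 8.77 and 5 counts on Camk2a-203, and 0.23 counts in replicate 1 on Camk2a-205. Of 6 markers of forebrain excitatory neurons, in which Camk2a is abundant, Cux2 alone was detected in both areas, and the summed level of the list was 3.96 TPM in replicate 1 and 2.33 TPM in replicate 2. Fezf2 and Emx1 had 0 counts in replicate 1 and 1 count each in replicate 2. Purkinje cells also express Camk2a, and the 6 Purkinje cell markers, of which 4 were detected in both areas, summed to 106 TPM in replicate 1 and 174 TPM in replicate 2. Most of that sum was Pcp2, at 91.1 and 158 TPM, and the other 5 markers lay between 0.38 and 7.89 TPM, with Itpr1 and Ppp1r17 higher in replicate 1. The part of any cell type in the Camk2a counts was not tested.

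Of the summed CaMKII TPM, Camk2d made up 56.3% in replicate 1 and 61.1% in replicate 2, Camk2b 36.3% and 31.0%, and Camk2g 7.32% and 7.94%. The mean share of Camk2b was 33.6% ± 3.78 (SD, n = 2 areas). This order rests on which transcripts are summed. The leading Camk2d transcript by TPM was Camk2d-208, of 992 bases, annotated as a retained intron and with no coding sequence. It had 79.3 TPM in replicate 1 and 82.7 TPM in replicate 2, or 36.8% and 34.7% of the gene, from 12.4% and 11.4% of its counts. Its longest exon, of 733 bases, starts with a 60-base coding exon and runs 673 bases on into the intron (chr3:126684720-126685392). Summed over protein-coding transcripts, a sum chosen after the data had been seen, Camk2d had 113 and 132 TPM and Camk2b 137 and 119 TPM. The Camk2b to Camk2d ratio was then 1.21 in replicate 1 and 0.902 in replicate 2, on different sides of 1, against 0.644 and 0.507 at the gene level. The mean share of Camk2b became 45.7% ± 4.98 and that of Camk2d 43.7% ± 4.35 (SD, n = 2 areas), so the pair could not be ordered by coding transcripts.

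**Figure D2:**
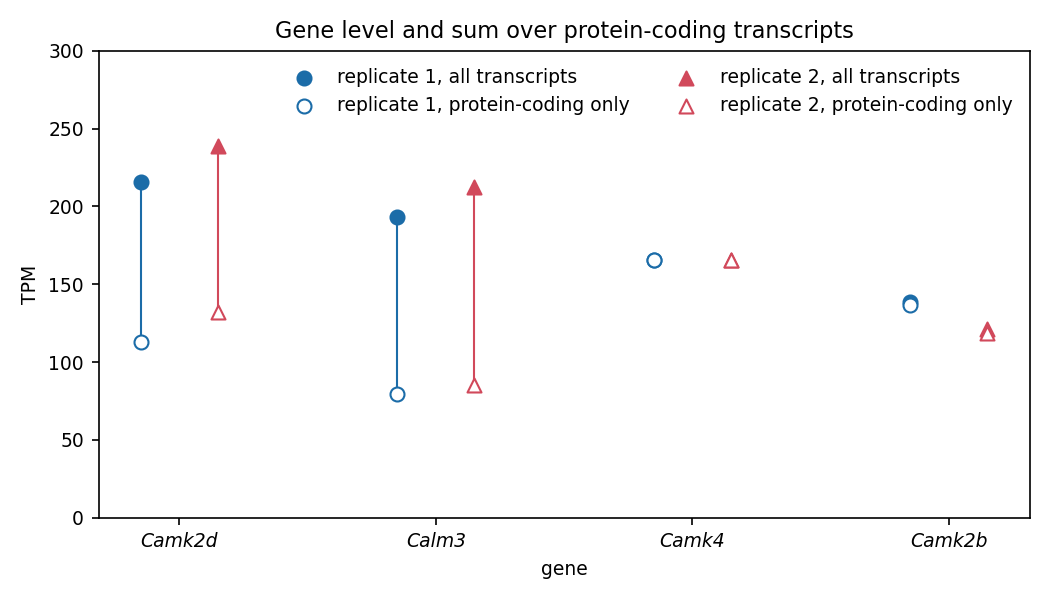
TPM of 4 genes in each area, summed over all transcripts (filled symbols) and over protein-coding transcripts alone (open symbols), joined by a line; circles are replicate 1 and triangles replicate 2. Camk2d and Calm3 drop to 113 and 79.8 TPM in replicate 1 and to 132 and 85.4 TPM in replicate 2, whereas the open and filled symbols of Camk4 coincide and those of Camk2b nearly do.

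**Figure D3:**
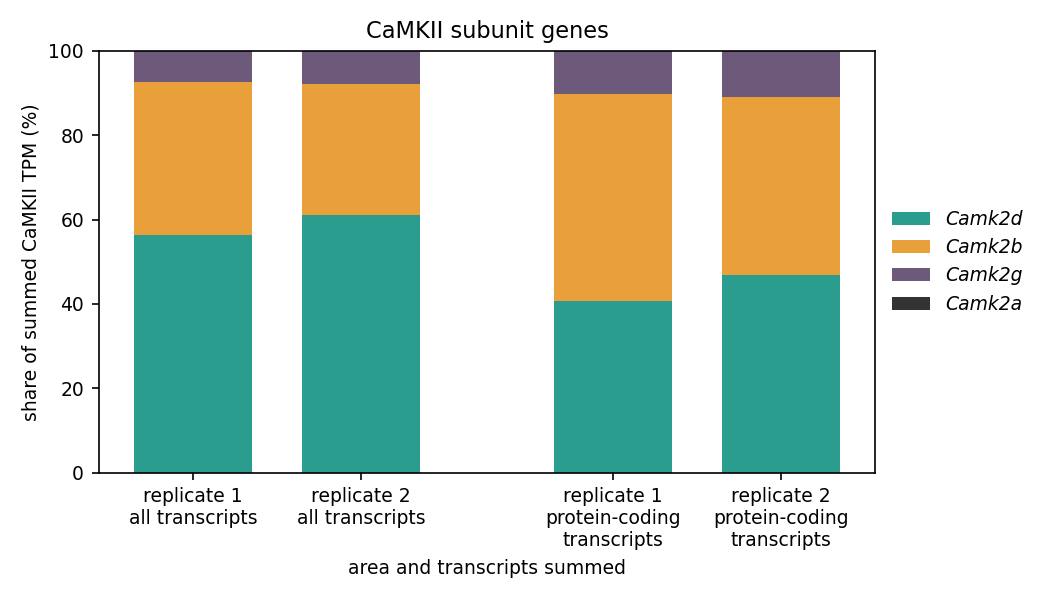
Share of each subunit gene in the summed CaMKII TPM, as stacked bars per area, from all transcripts (left pair) and from protein-coding transcripts (right pair). Camk2d holds 56.3% and 61.1% in the left pair and 40.6% and 46.8% in the right pair, and Camk2a is too low to be seen.

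Camk2b RNA was spread over many annotated forms, with 15 transcripts in the files and 5 at or above 1 TPM in both areas. Camk2b-209, whose coding sequence of 1626 bases holds all 3 exons printed above, led with 73.4 TPM in replicate 1 and 66.4 TPM in replicate 2, or 52.9% and 54.9% of the gene. The interval on its TPM lay above that of every other Camk2b transcript in each area. Camk2b-206, which skips the exon of 72 bases, held 11.6% and 14.5%, and Camk2b-201, which skips those of 75 and 45 bases, held 11.5% and 12.2%. Camk2b-210, whose coding sequence is also 1626 bases long, held 12.2% and 8.42%. Over protein-coding transcripts, the exon of 75 bases was present in 78.0% of Camk2b TPM in replicate 1 and 79.1% in replicate 2, that of 72 bases in 81.4% and 85.3%, and that of 45 bases in 81.2% and 87.4%. All 3 Camk2b exons were thus included more often than skipped in both areas.

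Camk2d coding RNA was divided almost evenly between 2 forms that differ in the exon of 60 bases. Camk2d-206, which includes it, had 56.3 TPM in replicate 1 and 56.3 TPM in replicate 2. Camk2d-202, which skips it, had 53.9 and 72.7 TPM. The intervals on these TPM values overlapped in replicate 1 and did not in replicate 2, where the skipping form was higher. The exon was present in 49.9% of coding Camk2d TPM in replicate 1 and in 42.8% in replicate 2, or 46.4% ± 5.05 (SD, n = 2 areas).

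Camk2g had 3 transcripts in the files, all protein coding, where GENCODE M21 lists 17, so its shares are among those 3 alone. Camk2g-201, which includes both Camk2g exons printed above, led with 64.8% of the gene in replicate 1 and 63.4% in replicate 2. Camk2g-203, which skips both, held 15.2% and 20.9%, and Camk2g-202, which skips the exon of 33 bases, held 20.0% and 15.7%. The intervals on the TPM of Camk2g-202 and Camk2g-203 overlapped in both areas. The exon of 33 bases was present in 64.8% and 63.4% of Camk2g TPM. The matching Camk2d exon, singled out after the values were seen, belonged in the files to the coding transcript Camk2d-205, which had 0 counts in both areas. Reads were shared out among 22 Camk2d transcripts in the files, so this 0 is an estimated assignment. The interval on the TPM of Camk2d-205 reached up to 0.324 in replicate 1 and 0.242 in replicate 2. GENCODE M21 lists the exon in 2 Camk2d transcripts, so the values of Camk2d-205 do not bound the use of the exon.

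**Figure D4:**
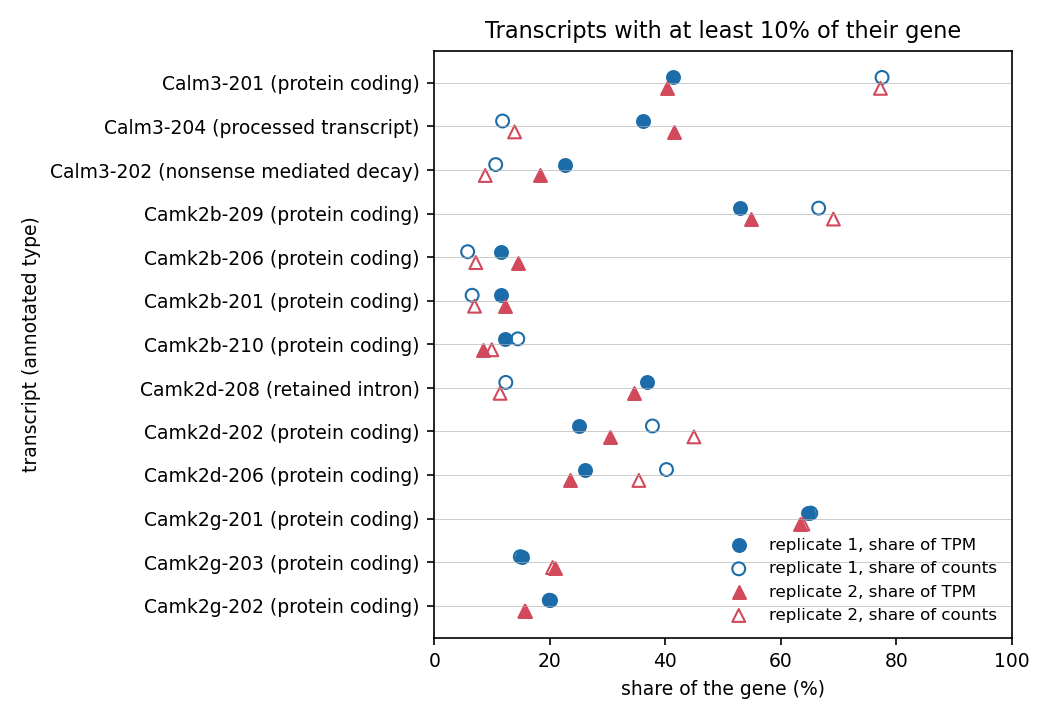
Share of its gene held by each transcript of Calm3, Camk2b, Camk2d and Camk2g with at least 10% in either area, as share of TPM (filled) and share of counts (open), replicate 1 as circles and replicate 2 as triangles. Camk2d-208 and the 482-base processed transcript of Calm3 hold 36.8% and 36.1% of TPM in replicate 1 from 12.4% and 11.8% of the counts.

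Camk4 (ENSMUSG00000038128.6, chr18:32934931-33191228, plus strand) had 165.89 TPM in replicate 1 and 165.87 TPM in replicate 2, from 34770 and 33798 counts. Among the 9 genes it was second to Calm2 by counts, with 3.55 times the counts of Camk2d in replicate 1 and 3.13 times in replicate 2, but stood at 0.770 and 0.695 of the gene-level TPM of Camk2d. Against the protein-coding transcripts of Camk2d it was 1.47-fold and 1.26-fold higher. The files hold 1 Camk4 transcript, of 12331 bases, and the later annotation GENCODE M21 gives that transcript 2717 bases and lists 4 for the gene. The TPM of Camk4 was computed by the authors with the long form, and a per-length comparison with other genes depends on it.

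Of the upstream kinases, Camkk2 was the higher in both areas. Camkk2 (ENSMUSG00000029471.9, chr5:122731170-122779409, minus strand) had 23.95 TPM in replicate 1 and 25.4 TPM in replicate 2, from 1947 and 2009 counts. Camkk1 (ENSMUSG00000020785.13, chr11:73019008-73042073, plus strand) had 12.42 and 10.03 TPM, from 710 and 557 counts. Camkk2 was 1.93-fold and 2.53-fold above Camkk1. Camkk1 was nearly all Camkk1-201, at 95.9% and 97.1% of the gene. The files hold 1 transcript for Camkk2, where GENCODE M21 lists 11, so its isoforms were not resolved.

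Differences between the areas were small in size. The ratio of replicate 1 to replicate 2, on the scale of log2(TPM + 1), ran from -0.15 for Camk2d to 0.28 for Camkk1 among the 8 detected genes. All 8 lay inside the central 95% of the 6424 protein-coding genes with a mean of at least 10 TPM, -0.49 to 0.49. The coefficient of variation of the 8 genes had a median of 6.97%, against 7.23% for those 6424 genes. It was lowest for Camk4 at 0.00853% and highest for Camkk1 at 15.1%.

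Counts were compared by the two-sided exact binomial test with Benjamini-Hochberg adjustment over 16659 genes. By this test 6 of the 9 genes differed between the libraries by more than counting error, against 46.7% of all genes tested. Of the 6424 protein-coding genes with a mean of at least 10 TPM, a level that 8 of the 9 genes reached, 53.2% did. Camk2b (log2 ratio 0.20, adjusted p = 7.85e-13) and Camkk1 (0.28, adjusted p = 0.00107) were the higher in replicate 1, in the same exact test, where 23.5% of genes were. Calm2 (-0.11, adjusted p = 1.03e-88), Calm3 (-0.14, adjusted p = 0.00177), Camk2d (-0.15, adjusted p = 7.11e-20) and Camk2g (-0.14, adjusted p = 0.00386) were the higher in replicate 2, again by the exact test, where 23.2% of genes were. Camk4 (0.00, adjusted p = 0.454), Camkk2 (-0.08, adjusted p = 0.0724) and Camk2a (0.10, adjusted p = 0.582) did not pass the exact test. Among the CaMKII genes that passed the test, Camk2b was higher in replicate 1 and Camk2d and Camk2g in replicate 2. The test compares these 2 libraries and takes reads as independent; with counts divided by 10 it called 1 of the 9 genes and 1.08% of all genes.

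**Figure D5:**
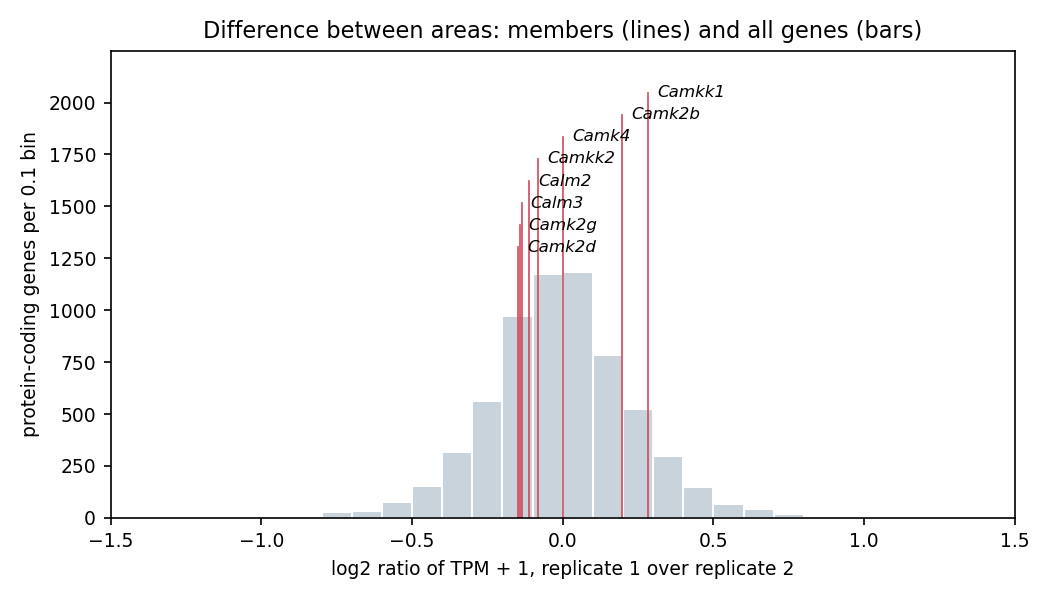
Log2 ratio of TPM + 1, replicate 1 over replicate 2, of the 8 detected genes (labelled lines) over the histogram of 6424 protein-coding genes with a mean of at least 10 TPM (bars, genes per bin, with values beyond the axis in the end bins). The lines run from -0.15 to 0.28, inside the central 95% of -0.49 to 0.49; line height has no meaning.

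The wider calcium-calmodulin pathway was described over 8 lists with 60 genes, chosen with earlier results of these data known. Of these 60 genes 46 (76.7%) were detected in both areas, against 50.4% of protein-coding genes. The part of the choice of lists in this difference was not tested. Between the libraries 31 of the 55 list genes with enough counts to be tested passed the exact binomial test, 17 higher in replicate 1 and 14 higher in replicate 2. Of all genes tested 46.7% passed in either direction, 23.5% higher in replicate 1 and 23.2% higher in replicate 2. The median log2 ratio of the detected list genes was 0.04, and that of all detected protein-coding genes was 0.00.

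The targets of the CaM kinase kinases include the CaM kinase I family. Of 5 other CaM kinases 3 were detected, led by Pnck at 48.2 ± 1.11 TPM, Camk1 at 31.8 ± 5.98 TPM and Camk1d at 12.3 ± 2.38 TPM (SD, n = 2 areas, here and for the lists below). Pnck and Camk1 encode the beta and alpha isoforms of CaM kinase I and Camk1d the delta isoform. Camk1g, the gamma isoform, had 1.06 TPM in replicate 1 and 0.37 TPM in replicate 2, and Camkv, a kinase-like protein without known activity, had 0.71 and 0.07 TPM. The 3 other calmodulin-like genes, Calm4, Calml3 and Calml4, had 0 counts in both areas.

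Of the CaMKII inhibitor genes, Camk2n1 stood at 31.9 ± 2.74 TPM and Camk2n2 at 21.2 ± 2.28 TPM. The CaM kinase phosphatase genes Ppm1e and Ppm1f were at 19.1 ± 3.54 and 2.39 ± 0.990 TPM, and all 4 genes of this list were detected. Among CaMKII partners and substrates, the NMDA receptor subunit Grin1 was at 47.3 ± 0.870 TPM, the synaptic vesicle protein Syn1 at 22.7 ± 2.86 TPM and Grin2b, the NMDA receptor subunit that anchors CaMKII, at 1.73 ± 0.467 TPM. Lrrc7, which encodes the scaffold densin, had 0 counts in replicate 1 and 1 count in replicate 2.

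Of 6 genes for calmodulin-binding buffers 5 were detected, led by Gap43 at 353 ± 49.0 TPM, Pcp4 at 90.8 ± 31.1 TPM and Marcks at 53.0 ± 9.96 TPM. Marcksl1 had 0.43 and 1.32 TPM and missed detection in replicate 1. Pcp4, which is also expressed in Purkinje cells, had 113 TPM in replicate 1 and 68.8 TPM in replicate 2.

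Calcineurin is the calcium-calmodulin phosphatase, and 8 of 9 genes of its list were detected. The catalytic subunit gene Ppp3ca was at 545 ± 11.7 TPM, the regulatory subunit gene Ppp3r1 at 214 ± 11.0 TPM and the second catalytic gene Ppp3cb at 146 ± 2.72 TPM. The testis-type subunit gene Ppp3r2 had 0 counts in both areas.

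Of 11 other calmodulin-regulated enzymes 6 were detected. The adenylyl cyclase gene Adcy1 led at 102 ± 9.30 TPM, followed by the phosphodiesterase gene Pde1c at 33.5 ± 0.948 TPM and the nitric oxide synthase gene Nos1 at 9.77 ± 0.0778 TPM. Those not detected in both areas were the phosphodiesterase genes Pde1a at 0.16 and 2.16 TPM and Pde1b at 0.86 and 0.27 TPM, the inositol trisphosphate kinase gene Itpka at 1.05 and 0.24 TPM, the myosin kinase gene Mylk at 0.69 and 0.82 TPM and the death-associated kinase gene Dapk1 at 1.30 and 0.70 TPM, with replicate 1 before replicate 2. Of these only Pde1a and Mylk were higher in replicate 2, and Mylk did not pass the exact binomial test (adjusted p = 0.344). These genes were named for missing detection, which a low value in 1 area is enough to cause. Counts were as low as 7, for Itpka in replicate 2. Over the whole list 6 of 11 genes passed the test, against 46.7% of all genes tested. Of these 6, 5 were higher in replicate 1, where 23.5% of all genes were, and 1 in replicate 2, where 23.2% were.

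All 17 factors and kinases downstream of the CaM kinase kinases were detected. The transcription factor gene Mef2a led at 82.1 ± 7.67 TPM, with the CREB-binding protein gene Crebbp at 51.7 ± 1.1 TPM and the histone deacetylase gene Hdac5 at 35.8 ± 6.29 TPM. Creb1, which encodes the CREB factor that CaM kinase IV phosphorylates, had 32.3 TPM in replicate 1 and 33.3 TPM in replicate 2. By counts Hdac5 was well below Creb1, with 433 in replicate 1 and 344 in replicate 2 against 2712 and 2708. Of the 17 genes, 8 passed the exact binomial test between the libraries, a share near the 46.7% of all genes tested, and Crebbp and Creb1 did not pass it.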

How the data were processed

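Gene and transcript tables of 2 laser-captured areas were used, 1 library each. The deposited expected counts are estimated reads per gene or transcript, not normalized, per the file headers. The deposited TPM values were scaled by the authors to transcript length and to the sum of a library, per the file headers, and the deposited percent columns hold the share of a gene's TPM that a transcript takes. The deposited score columns hold the bounds of an interval on the posterior mean TPM, whose level is not given, and the posterior standard deviation of the count, per the file headers. Effective length was also deposited by the authors. Per the deposited notes, reads were placed on mm10 with the GENCODE M4 annotation. Aligner, counter, filters and strand setting: not given in the sources used here.

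Names, transcript types, exons and sequences came from GENCODE M21 (GRCm38, which is mm10) by IDs without version: 42462 of 43346 gene IDs matched. Types and lengths can differ from those used for counting. Spike-in and numeric rows were left out of gene totals; they took 2.78% of all counts in replicate 1 and 3.40% in replicate 2. A gene was called detected at a TPM of at least 1 and at least 5 counts. Counts were rounded and compared between areas by a two-sided exact binomial test against the share of library totals, for genes with a summed count of at least 10, with Benjamini-Hochberg adjustment at 0.05 (scipy 1.17.1). On simulated Poisson counts for 16620 genes with 200 changed 2-fold it recovered 96% of them, and 6.34% of its calls were false. Such counts vary by counting error alone, as the test assumes, so neither share was measured on amplified reads. Pseudogenes were sought with blastn 2.17.0. Alternatives used edgeR 4.0.16 (TMM) and DESeq2 1.42.0 (size factors). The interval bounds lie around the posterior mean, which is lower than the TPM of well-covered genes, and were compared only with one another.

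Named genes were the 9 genes, their transcripts with at least 10% of the gene in either area, and the 3 highest and the undetected genes of each pathway list, of which 1 is not reported here; Camk2d-205, Ppm1f, Creb1 and single cell markers were named after their values were seen. The genes and lists were chosen with earlier results of these data known. No likeness of pattern between genes was computed, since 1 group holds no pattern. No annotated pseudogene has a name starting with Calm.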

Additional observations from a re-analysis of the deposited data

How the results depend on the processing

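The count of 9 genes detected in both areas stayed at 8 under TPM thresholds of 0.1 and 5, posterior mean TPM, protein-coding transcripts and either area alone. The number beyond counting error was 6 under TMM, DESeq2 size factors and no filter, but 1 with counts divided by 10. The Camk2b share of CaMKII TPM was 33.6% and ran from 31.0% to 36.3% over single areas, with 36.1% from counts; it was 45.7% from protein-coding transcripts, by construction, since the noncoding Camk2d transcripts are left out. A protein-coding transcript led in 7 of the 8 detected genes on the mean share, and in 6 or 7 over single areas. Pathway genes detected numbered 46, 48 to 49 over single areas, and 37 at a TPM of at least 5. The log2 ratio of Camk4, near 0, changed sign to -0.011 with TMM-scaled counts; the other 8 ratios kept their sign. Rescaling over annotated genes raised all 9 levels by a similar factor, such as Calm2 from 6225 to 6624 TPM and Camk2b from 129.9 to 138.2 TPM. This moved 3 of 9 genes by more than 1 SD. Which genes did so depended on their SD between areas, which was 0.01414 TPM for Camk4. Posterior means and protein-coding transcripts each moved 2 genes by more than 1 SD. Posterior means put Camk2a at 0.56 TPM, still below 1. No paired analysis was possible because there is 1 group. Reads per gene limit Camk2a, Camkv and Camk1g. Transcript shares depend on the annotation used for counting.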

Other observations

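Camkmt, which encodes the methyltransferase that modifies a lysine of calmodulin, was looked up after the values of the calmodulin genes were seen. It lies at chr17:85090552-85458588 and had 23.5 TPM in replicate 1 and 18.4 TPM in replicate 2, from 351 and 268 counts. It was higher in replicate 1 by the exact binomial test (log2 ratio 0.33, adjusted p = 0.0117), where 23.5% of genes were.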
